A study of Mus musculus with 48 samples.

Results

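Endothelial and mural cell genes were followed through all 48 RNA sequencing libraries of the series. The 34 genes were taken as a list of symbols from the first column of the read-count table, which holds 24060 rows, and all 34 were found there: 26 endothelial genes and 8 mural genes. Adult mice, 24 of them according to the description of the series, gave striatal tissue. An adeno-associated virus had expressed HA-tagged Rpl22, a ribosomal protein, in striatal astrocytes for 3 weeks (the RiboTag method). For each replicate an IP library was made from RNA that came down with the tagged ribosomes and an input library from the cleared lysate of the tissue. All mice carry the strain label C57, and all groups, controls included, received the RiboTag virus. The 6 groups had 4 replicates each: vehicle and MPTP (20 mg/kg, 4 doses), a toxin that kills dopamine neurons; wild-type littermates and SAPAP3 knockouts, whose targeted gene Dlgap3 encodes a scaffold protein of excitatory synapses; and, in R6/2 mice, a transgenic model of Huntington's disease, a control cargo and hM4Di, an engineered Gi-coupled receptor directed to astrocytes. How MPTP was given is not certain, because the labels pair a dose by weight with a microinjection into striatum, and no agonist of hM4Di is named. IP and input of MPTP replicate 2 carry the names of different animals, and wild-type replicate 3 is possibly a pool of 2 mice, judging by its title. Input libraries held 21.9 M to 39.0 M counted reads and IP libraries 34.3 M to 61.5 M.

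Brain capillaries are tubes of endothelial cells sealed by tight junctions, which carry transporters for glucose, lactate, lipids and drugs and together form the blood-brain barrier. Pericytes, the mural cells of capillaries, share the basement membrane with the endothelium and are recruited through the platelet-derived growth factor receptor, and both are wrapped by the endfeet of astrocytes. The tag was expressed in astrocytes, so RNA of vascular cells is expected to be left behind by the precipitation. Whole-lysate input libraries hold it at its share of the tissue. In such bulk libraries, fewer vascular cells and less RNA per vascular cell cannot be told apart.

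The start regions of 5 members are shown so that endothelial genes with and without a searched motif can be read beside mural genes. Each is the 250 bases before the RefSeq start on build GRCm38.p6, written 5′ to 3′ on the strand of the gene, and capitals mark AGGAAG or its reverse complement, a sequence bound by ETS factors, a family with well-known roles in endothelial cells. The endothelial genes shown are Cldn5 (chr16:18776597-18776846, + strand), Eng (chr2:32646345-32646594, + strand) and Flt1 (chr5:147726012-147726261, - strand), and the mural genes are Rgs5 (chr1:169655251-169655500, + strand) and Kcnj8 (chr6:142571615-142571864, - strand).
Cldn5: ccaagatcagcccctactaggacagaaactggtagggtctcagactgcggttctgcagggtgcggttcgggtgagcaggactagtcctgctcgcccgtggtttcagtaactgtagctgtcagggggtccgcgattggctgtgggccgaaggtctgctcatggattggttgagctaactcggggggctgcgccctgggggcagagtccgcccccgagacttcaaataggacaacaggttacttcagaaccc
Eng: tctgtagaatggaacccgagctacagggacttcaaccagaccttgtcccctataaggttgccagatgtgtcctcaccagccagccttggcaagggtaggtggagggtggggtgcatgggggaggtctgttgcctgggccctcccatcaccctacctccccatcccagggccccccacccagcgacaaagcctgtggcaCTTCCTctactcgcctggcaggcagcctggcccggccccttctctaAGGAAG
Flt1: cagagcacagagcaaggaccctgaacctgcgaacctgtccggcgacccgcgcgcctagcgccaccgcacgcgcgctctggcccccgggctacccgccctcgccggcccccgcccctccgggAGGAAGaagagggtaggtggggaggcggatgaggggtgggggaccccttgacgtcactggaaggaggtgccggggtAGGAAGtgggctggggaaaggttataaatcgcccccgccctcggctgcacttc
Rgs5: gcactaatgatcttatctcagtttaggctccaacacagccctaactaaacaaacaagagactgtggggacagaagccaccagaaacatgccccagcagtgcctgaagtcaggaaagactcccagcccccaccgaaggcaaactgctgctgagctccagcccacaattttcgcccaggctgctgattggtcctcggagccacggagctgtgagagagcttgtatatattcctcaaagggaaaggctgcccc
Kcnj8: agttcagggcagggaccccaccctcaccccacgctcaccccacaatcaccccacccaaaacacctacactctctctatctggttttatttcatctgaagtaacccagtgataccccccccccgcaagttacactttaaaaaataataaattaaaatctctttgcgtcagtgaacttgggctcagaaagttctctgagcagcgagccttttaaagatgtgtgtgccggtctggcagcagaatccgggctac
RefSeq start regions were at hand for 22 of the 34 members. AGGAAG on either strand lay in 10 of 17 endothelial members (58.8%: Abcb1a, Egfl7, Emcn, Eng, Flt1, Itm2a, Ly6c1, Nostrin, Slco1a4 and Tie1) and in 0 of 5 mural members, against 32.3% of 27025 genes with a region of the same length. It was singled out after 9 motifs had been counted. The shorter GGAA, which it contains, lay in 15 of 17 and 3 of 5 members and in 94.2% of all genes. Other counted motifs with GGAA showed no endothelial excess. CCGGAA lay in 2 of 17 endothelial members (11.8%), 0 of 5 mural members and 13.6% of all genes. ACCGGAAGT lay in 0 of 17, 0 of 5 and 0.892%. ACAATG, a sequence bound by SOX factors, lay in 1 of 17, 0 of 5 and 12.2%.

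In input libraries the members spanned a wide range of levels on the length-scaled FPKM of the authors' table. The basement membrane protein gene Vtn was highest with a median of 30.5 FPKM over 24 input libraries (24.5 to 37.6), followed by the glucose transporter gene Slc2a1 at 22.3 (19.7 to 29.8), the membrane protein gene Itm2a at 15.6 (9.42 to 21.2) and the pericyte G-protein regulator gene Rgs5 at 15.5 (10.1 to 20.4). The tight junction gene Cldn5 was at 10.8 (6.20 to 17.9), and the transcription factor genes Sox17 and Foxq1 were lowest at 0.657 (0.389 to 0.879) and 0.623 (0.365 to 0.804). Each gene's range overlapped that of the next in this order in all 33 neighbouring pairs, so the order is firm only between genes farther apart. Over genes, the medians were centred at 3.75 FPKM for the endothelial class and 2.04 for the mural class. In IP libraries the class centres were 0.490 and 2.19 FPKM, and 5 members had a higher median in IP than in input: Slc2a1, Slc16a1, Mfsd2a, Pdgfrb and Notch3.

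**Figure D1:**
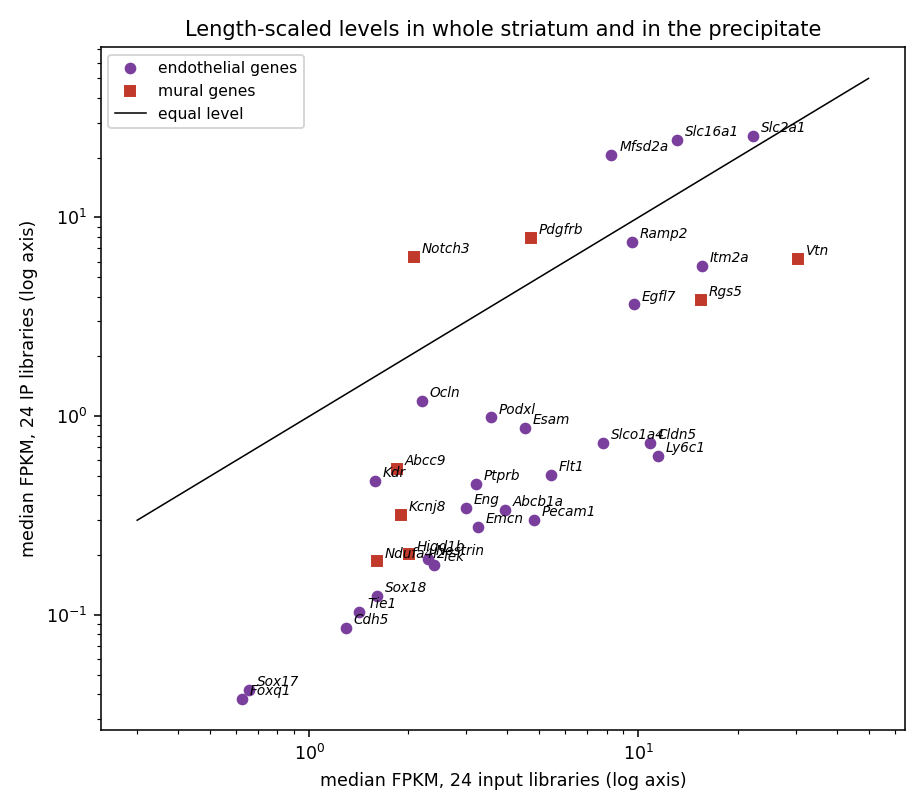
Median FPKM of each member in the 24 input libraries (horizontal, log axis) and the 24 IP libraries (vertical, log axis), with endothelial genes as circles, mural genes as squares and the line of equal level. Slc2a1, Slc16a1, Mfsd2a, Pdgfrb and Notch3 lie above the line and the other members below it.

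The comparison of IP with input measured how far vascular RNA was left behind in each mouse. Most endothelial and mural genes were lower in IP. A gene counted as depleted or enriched when it passed an adjusted p of 0.05 in edgeR's quasi-likelihood test (Benjamini-Hochberg over all genes tested) and a fold of 2. In the MPTP experiment 21 of 26 endothelial and 5 of 8 mural genes were depleted, where 14.0% of 15862 genes were, and 2 and 2 were enriched, where 12.5% were. In the SAPAP3 experiment 20 and 6 were depleted against 13.0% of 16059 genes, and 2 and 2 enriched against 11.9%. In the R6/2 experiment 20 and 6 were depleted against 12.3% of 15880 genes, and 1 and 1 enriched against 11.3%. The median log2 fold change of IP against input over the endothelial genes was -2.60, -2.89 and -3.47 in the MPTP, SAPAP3 and R6/2 experiments, and over the mural genes -1.93, -1.72 and -2.40, while over all genes it was -0.02, 0.00 and -0.02.

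By the mean over the 3 experiments, the genes left behind most were Ly6c1, a surface protein gene of brain endothelium, Cldn5, the forkhead factor gene Foxq1 and the adhesion molecule gene Pecam1. The order differed within experiments: Emcn and Sox18 were lower than Pecam1 and Foxq1 in the MPTP experiment, and Sox17, Cdh5 and Tie1 were lower than all 4 in the SAPAP3 experiment. For Ly6c1 the log2 ratio of IP to input of each mouse was -4.10, -3.76, -4.04 and -4.16 in vehicle and -3.63, -3.48, -4.03 and -3.83 in MPTP replicates 1 to 4. It was -3.86, -2.71, -4.66 and -3.26 in wild-type and -2.54, -3.48, -3.57 and -2.63 in knockout mice, and -5.04, -4.87, -5.01 and -5.10 with control cargo and -4.77, -4.83, -3.43 and -4.62 with hM4Di. All 24 replicates lay far below 0, and the 4 control cargo replicates were lowest. The fitted changes were -3.87 ± 0.10 (SE, 8 IP and 8 input libraries, edgeR adjusted p = 1.33e-16) in the MPTP, -3.18 ± 0.23 (1.09e-09) in the SAPAP3 and -4.58 ± 0.25 (2.53e-11) in the R6/2 experiment. Cldn5 changed by -3.75 ± 0.11, -3.20 ± 0.20 and -4.22 ± 0.15, with single mice between -2.57 (knockout replicate 1) and -4.77 (control cargo replicate 2). Pecam1 changed by -3.57 ± 0.15, -3.15 ± 0.19 and -4.24 ± 0.12. Its single mice ran from -2.34 (knockout replicate 4) to -4.82 (control cargo replicate 2). Foxq1 changed by -3.50 ± 0.21, -3.01 ± 0.23 and -4.58 ± 0.32, and rests on few reads: 1 IP library of control cargo held 0 reads of it.

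Depletion of the other endothelial genes ranged widely. The angiopoietin receptor gene Tek (-3.46, -3.05 and -4.05 in the MPTP, SAPAP3 and R6/2 experiments) and its partner Tie1 (-3.27, -3.22, -3.998) were strongly depleted. So were the cadherin gene Cdh5 (-2.90, -3.23, -3.85), the sialomucin gene Emcn (-3.62, -3.11, -3.77), and Sox17 and Sox18. In the MPTP experiment Cdh5 was depleted less than Cldn5. The drug efflux pump gene Abcb1a was at -2.72, -3.00 and -3.72, Slco1a4, which encodes an organic anion transporter, at -3.19, -2.96 and -3.35, and the VEGF receptor gene Flt1 at -2.48, -2.96 and -3.61. Kdr, the other VEGF receptor gene of the list, was at -1.41, -1.64 and -1.49, and the secreted factor gene Egfl7 at -1.28, -1.04 and -1.08. Depletion of Itm2a passed a fold of 2 only in the MPTP experiment, at -1.50 against -0.88 and -0.58, and the tight junction gene Ocln passed it in none, at -0.83, -0.25 and -0.85. Ramp2, an accessory protein gene of the adrenomedullin receptor, was at -0.33, 0.15 and -0.29, within a fold of 2 in each experiment.

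Among the mural genes, the mitochondrial protein genes Higd1b (-3.11, -2.43, -2.98) and Ndufa4l2 (-3.03, -2.53, -2.90) were lowest in IP. The potassium channel subunit gene Kcnj8 followed at -2.48, -2.02 and -2.69, with Abcc9, its sulfonylurea receptor partner, at -0.95, -1.50 and -2.12. Vtn was at -2.01, -1.91 and -2.72, and Rgs5 at -1.85, -1.53 and -1.93. All 6 were lower in IP in each of the 3 experiments, Abcc9 by less than a fold of 2 in the MPTP experiment.

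Notch3, Mfsd2a, Slc16a1 and Pdgfrb had the highest ratios. The source cells of their IP reads were not tested. Notch3, a receptor gene of mural cells, was higher in IP in every mouse: 2.49, 2.29, 2.28 and 2.29 on the log2 scale in vehicle, 2.34, 2.44, 2.26 and 2.29 in MPTP, 1.38, 1.63, 1.67 and 1.92 in wild-type, 1.90, 2.04, 2.04 and 1.99 in knockout, 1.90, 1.67, 1.91 and 1.94 in control cargo and 1.93, 1.88, 1.89 and 1.84 in hM4Di replicates 1 to 4. The values of MPTP-experiment mice all lay above those of the other 16. The fitted change was 2.34 ± 0.07 (edgeR adjusted p = 7.45e-16), 1.82 ± 0.09 (3.21e-12) and 1.87 ± 0.06 (9.11e-15). Mfsd2a, the lipid transporter gene of the barrier, changed by 1.48 ± 0.08, 1.77 ± 0.11 and 1.40 ± 0.14, with single mice from 0.93 to 2.01. The lactate transporter gene Slc16a1 changed by 1.06 ± 0.08, 1.55 ± 0.09 and 0.92 ± 0.09, and Slc2a1 by 0.27 ± 0.05, 0.59 ± 0.05 and 0.38 ± 0.08, the latter within a fold of 2. Pdgfrb, the receptor gene of pericyte recruitment, changed by 1.10 ± 0.06, 1.01 ± 0.06 and 0.88 ± 0.07. Its excess in the SAPAP3 experiment lay at the limit of a fold of 2 and was lost when knockout replicate 2 or 3 or wild-type replicate 3 or 4 was left out, with DESeq2, with relative log expression or upper-quartile scaling and under a stricter filter. In the MPTP experiment upper-quartile scaling ended the enrichment of Pdgfrb and Slc16a1. Beside these, all 10 astrocyte genes of a marker list were enriched in each experiment, with medians of 2.605, 2.37 and 2.54, and all 10 microglial genes were depleted, with medians of -5.05, -3.91 and -5.07. Of 5 blood cell genes 1 passed the filter on low counts.

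**Figure D2:**
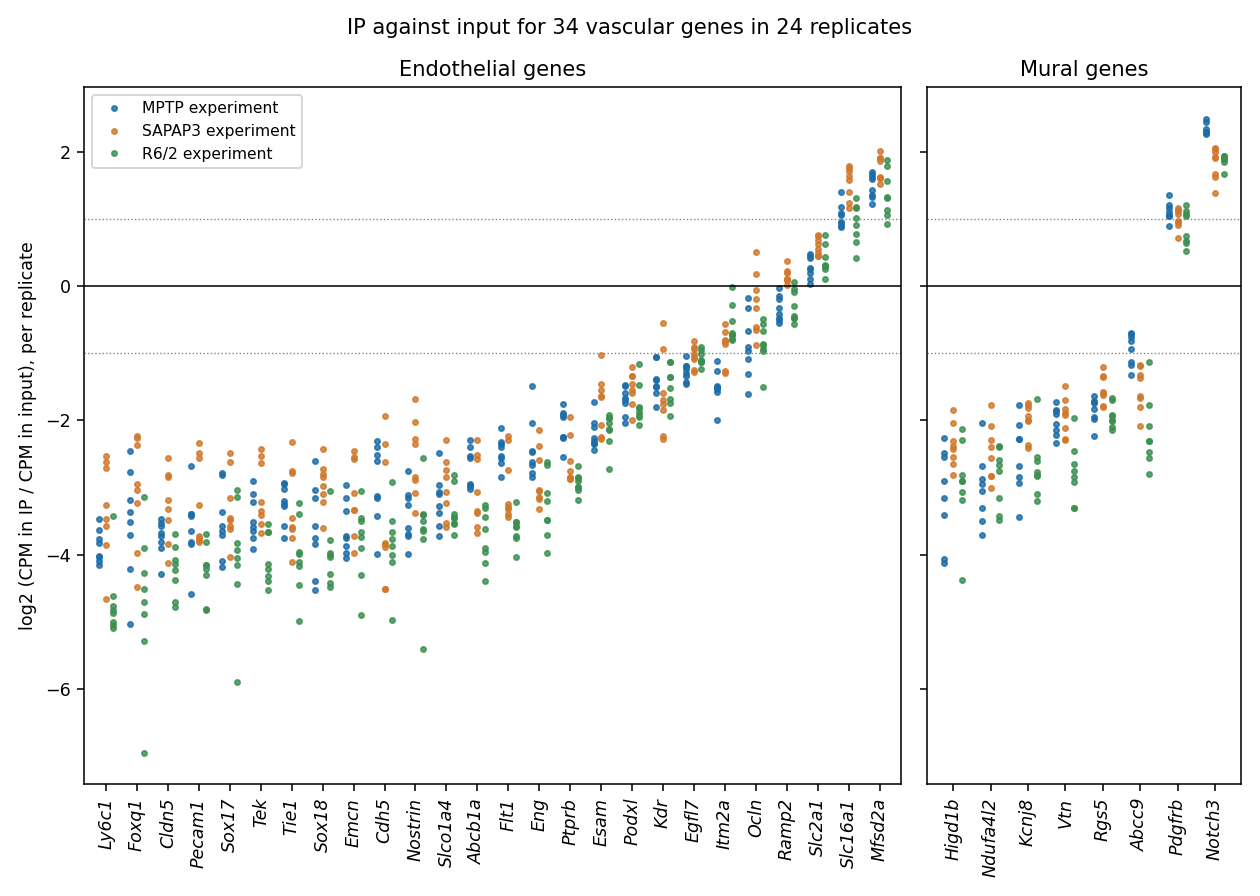
Log2 ratio of CPM in IP to CPM in input (vertical) for each member in each of the 24 replicates, with endothelial genes on the left, mural genes on the right and 1 colour per experiment; dotted lines mark a fold of 2. Points of Ly6c1, Cldn5 and Pecam1 lie at -2.34 or lower in all replicates, those of Mfsd2a at 0.93 or higher and those of Notch3 at 1.38 or higher, and the lowest Foxq1 point comes from a library with 0 reads of that gene (prior count 0.5).

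Depletion varied between mice of 1 experiment. The median over the 26 endothelial genes in single mice ran from -2.36 (MPTP replicate 2, whose libraries name different animals) to -2.83 (vehicle replicate 2) in the MPTP experiment and from -3.10 (hM4Di replicate 1) to -3.68 (control cargo replicate 2) in the R6/2 experiment. In the SAPAP3 experiment it ran from -2.18 to -3.08. Knockout replicates 1 and 4 were at -2.18 and -2.23 and wild-type replicate 2 at -2.55, while the other 5 lay between -2.96 and -3.08. In those 2 knockout mice the microglial list was also least depleted, with medians of -2.72 and -3.12 against -4.07 to -4.66 in the other 6. The part of other cells' RNA in the difference was not tested.

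Whether the depletion of members differed between experiments was tested across all 48 libraries as a difference of differences. This fit did not pair IP with input of 1 mouse, and no alternative with that pairing was run. Between the MPTP and SAPAP3 experiments 11 of 34 members and 5704 of 16607 genes were called in either direction, so the members' share is near that of all genes. The counts were 15 members and 5341 genes between the MPTP and R6/2 experiments, and 19 members and 4277 genes between the SAPAP3 and R6/2 experiments. Against the SAPAP3 experiment, the MPTP experiment had lower IP-to-input ratios for 7 endothelial genes and higher ones for 2 endothelial and 2 mural genes, where 15.5% and 18.9% of 16607 genes were called lower and higher. Against the R6/2 experiment it had a lower ratio for 1 endothelial gene and higher ratios for 10 endothelial and 4 mural genes (11.6% and 20.5% of all genes). Ratios in the SAPAP3 experiment were higher than in the R6/2 experiment for 15 endothelial and 4 mural genes (15.0% of all genes), and no member was called lower by edgeR, where 10.8% of all genes were; 1 endothelial gene, Itm2a, was lower at an unadjusted p under 0.05. Itm2a was called lower with relative log expression or upper-quartile scaling, by DESeq2, and without wild-type replicate 1, knockout replicate 4, control cargo replicate 2 or hM4Di replicate 2. DESeq2 called 20 members in that comparison and limma-voom 16. With 1 mouse left out edgeR called 14 members (without knockout replicate 1 or wild-type replicate 2) to 20 (without wild-type replicate 1). Of all genes, 3644 to 4676 were called with 1 mouse left out. Higher calls made up 55.0%, 63.9% and 58.2% of all calls in the 3 comparisons, and 42.4%, 44.1% and 48.9% with upper-quartile scaling. The gene with the largest difference was Foxq1, at 1.58 ± 0.41 between the SAPAP3 and R6/2 experiments, followed by Ly6c1 at 1.44 ± 0.30 (edgeR adjusted p = 0.000428). Flt1 differed by 1.19 ± 0.17 (1.01e-06) and Abcc9 by 1.23 ± 0.19 (3.7e-06) between the MPTP and R6/2 experiments, and Itm2a by -0.87 ± 0.12 (5.17e-07). Titles carry a separate leading number for each experiment. Experiment, genotype and whatever that number marks cannot be told apart in this comparison.

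MPTP was compared with vehicle in input to ask whether vascular RNA of the tissue changed. No member passed: 0 of 15601 genes were called by edgeR's quasi-likelihood test (0% lower and 0% higher). At an unadjusted p under 0.05, 9 endothelial and 3 mural genes were lower, where 5.04% of all genes were, and 2 endothelial genes were higher, where 3.22% were. Counted in either direction, 11 endothelial genes lay under that threshold, and with 1 mouse left out 6 (without vehicle replicate 4) to 15 (without MPTP replicate 1). The matching counts of all genes were 1289 of 15601, 1043 of 15654 and 1633 of 15718. DESeq2 called 65 genes, among them Slco1a4, Vtn and Rgs5 at adjusted p = 0.00574, 0.0111 and 0.0438, and limma-voom called 0. On the log2 scale 20 of 26 endothelial and 8 of 8 mural genes were below 0, as were 46.2% of all genes, with medians of -0.17 and -0.17 and 0.01 for all genes. The groups did not overlap for 5 endothelial and 2 mural genes, all lower with MPTP, against 2.62% of all genes lower and 1.66% higher.

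Slco1a4 was at 38.4, 38.0, 38.4 and 33.5 CPM in vehicle replicates 1 to 4 and at 31.9, 29.4, 30.8 and 28.9 CPM in MPTP replicates 1 to 4. The groups did not overlap, and the change was -0.29 ± 0.06 (SE, n = 4 and 4, edgeR adjusted p = 0.468). Cldn5 was at 19.2, 20.4, 21.3 and 25.3 CPM with vehicle and 16.5, 17.6, 17.9 and 16.3 CPM with MPTP, again with no overlap (-0.34 ± 0.08, adjusted p = 0.509). Kdr, at 10.8, 9.48, 10.4 and 10.05 CPM with vehicle and 9.61, 7.27, 6.83 and 7.76 CPM with MPTP, overlapped through MPTP replicate 1 (-0.37 ± 0.11). Ptprb, a phosphatase gene that restrains Tek, was at 35.7, 34.6, 33.2 and 36.9 CPM against 31.5, 30.4, 28.3 and 21.1 CPM, with MPTP replicate 4 lowest (-0.33 ± 0.10). Itm2a was at 35.0, 32.0, 29.6 and 27.4 CPM against 23.7, 24.9, 27.7 and 26.9 CPM (-0.27 ± 0.08), and Slc16a1 at 61.3, 63.0, 58.4 and 62.2 CPM against 59.8, 50.8, 56.6 and 51.2 CPM (-0.17 ± 0.06). Both overlapped by a narrow margin. The endothelial genes above 0 were Mfsd2a (0.26 ± 0.10), Slc2a1 (0.14 ± 0.06), Ly6c1 (0.17 ± 0.09), Ramp2, Podxl and Sox17.

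Among the mural genes, Vtn was at 61.9, 59.9, 64.4 and 65.5 CPM with vehicle and 55.8, 53.8, 55.7 and 52.8 CPM with MPTP. All 4 treated values lay below all 4 controls, a change of -0.21 ± 0.04 (edgeR adjusted p = 0.468). Rgs5 was at 34.1, 34.4, 35.8 and 32.6 CPM against 26.4, 32.5, 27.7 and 27.6 CPM, where MPTP replicate 2 nearly reached the lowest control (-0.26 ± 0.07, adjusted p = 0.512). Pdgfrb was at 22.4, 21.8, 24.8 and 27.6 CPM against 22.6, 20.6, 21.4 and 19.7 CPM and overlapped (-0.20 ± 0.08). Smooth muscle genes stood in the same direction, with 5 of 6 tested below 0 and a median of -0.30, and 8 of 10 microglial genes stood above 0 with a median of 0.09.

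SAPAP3 knockout mice were compared with wild-type littermates in the same way. Dlgap3, the targeted gene, was at 498, 391, 380 and 397 CPM in wild-type and 204, 190, 168 and 167 CPM in knockout input libraries, so reads of it remained in every knockout mouse. Of 15591 genes it was the only one called (0.00641% lower, 0% higher), and no member was called by edgeR, DESeq2 or limma-voom. At an unadjusted p under 0.05, 10 endothelial and 2 mural genes were lower, where 2.75% of all genes were, and no member was higher, where 2.82% of genes were. The endothelial count was 5 without knockout replicate 4, and 3 with both knockout replicates 1 and 4 left out, the mice with most microglial RNA in IP (chosen after the data were seen). The count of all genes in either direction fell too, from 869 of 15591 to 531 of 15701 and 285 of 15860 in these settings. In all, 22 of 26 endothelial and 7 of 8 mural genes were below 0, as were 50.5% of all genes, with medians of -0.24 and -0.16 against 0.00 for all genes. The groups did not overlap for 4 endothelial genes and 1 mural gene, all lower in knockout mice, against 1.62% of genes lower and 2.41% higher.

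Ocln was at 7.18, 8.03, 6.57 and 6.63 CPM in wild-type replicates 1 to 4 and at 5.49, 5.53, 6.14 and 4.34 CPM in knockout replicates 1 to 4. The groups did not overlap, and the change was -0.40 ± 0.13 (edgeR adjusted p = 0.735, the value shared by each of the 9 genes described for this comparison). Abcb1a was at 20.1, 21.7, 19.3 and 18.6 CPM against 16.5, 18.5, 16.2 and 13.5 CPM (-0.30 ± 0.10). Tek, at 12.2, 9.43, 9.996 and 8.95 CPM against 8.94, 7.54, 7.84 and 6.52 CPM, was separated by the smallest of margins (-0.39 ± 0.13). Cldn5 had the largest change of the 34, -0.48 ± 0.16, but its values of 19.2, 16.4, 12.2 and 14.3 CPM in wild-type and 13.6, 11.2, 10.7 and 8.83 CPM in knockout mice overlapped. The adhesion molecule gene Esam was at 10.2, 9.57, 7.55 and 9.41 CPM against 7.96, 6.54, 7.08 and 7.42 CPM (-0.34 ± 0.11), and Itm2a at 21.5, 18.4, 20.9 and 16.8 CPM against 17.2, 15.8, 16.9 and 15.5 CPM (-0.25 ± 0.09). Wild-type replicate 1 was highest or second highest for each of these 6 genes, and knockout replicate 4 was lowest for 5 of them.

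Of the mural genes, Pdgfrb was at 28.4, 27.5, 27.7 and 24.8 CPM in wild-type and 23.5, 25.1, 23.2 and 22.2 CPM in knockout mice (-0.21 ± 0.06). Vtn was at 59.2, 48.8, 49.2 and 48.7 CPM against 45.4, 45.03, 47.8 and 43.0 CPM (-0.18 ± 0.07), with no overlap and with wild-type replicate 1 far above its group. Abcc9 was at 15.5, 15.2, 14.7 and 14.4 CPM against 12.03, 12.1, 14.2 and 14.8 CPM (-0.17 ± 0.08). Lists of other cells stood low in the same input libraries: all 10 microglial genes (median -0.24), all 8 tested medium spiny neuron genes (median -0.32) and 4 of 5 tested smooth muscle genes (median -0.39) were below 0, while the astrocyte list had a median of 0.05. Summed over the 10 microglial genes, the level was 751 to 1453 CPM in wild-type and 888 to 1064 CPM in knockout input libraries, and their part in the difference was not tested. Knockout replicate 1 and wild-type replicate 4 held Xist reads, unlike the other 6 mice. With both left out 10 endothelial genes and 1 mural gene were under the unadjusted threshold, as were 795 of 15564 genes.

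In R6/2 mice the vascular genes stood the other way with hM4Di. Of 15168 genes 3 were called in input (0% lower, 0.0198% higher): Chrm4, the gene hM4Di was derived from in its human form, Gem and Cyr61. None is a member, and DESeq2 and limma-voom called no member either. At an unadjusted p under 0.05, 5 endothelial genes and 1 mural gene were higher, where 4.98% of all genes were, and no member was lower, where 2.69% of genes were. Without 1 replicate the endothelial count ran from 2 (without control cargo replicate 1) to 8 (without control cargo replicate 2). In either direction, 1062 of 15277 and 1117 of 15309 genes lay under the threshold in these settings, and 1163 of 15168 with all replicates. On the log2 scale 22 of 26 endothelial and 8 of 8 mural genes were above 0, as were 49.6% of all genes, with medians of 0.15 and 0.13 and 0.00 for all genes. The groups did not overlap for 1 member, higher with hM4Di, against 2.68% of genes higher and 1.89% lower.

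That member was Slco1a4, at 28.1, 29.9, 25.7 and 26.3 CPM in control cargo replicates 1 to 4 and 31.5, 34.1, 32.5 and 33.5 CPM in hM4Di replicates 1 to 4 (0.26 ± 0.06, edgeR adjusted p = 0.370). Ptprb was at 38.1, 45.05, 40.0 and 36.4 CPM against 44.1, 52.5, 48.0 and 48.1 CPM (0.27 ± 0.07, adjusted p = 0.448), and Flt1 at 33.9, 39.9, 38.6 and 37.1 CPM against 41.6, 43.3, 39.3 and 42.1 CPM (0.15 ± 0.06). For both, control cargo replicate 2 was the control that reached into the treated range. The TGF-beta co-receptor gene Eng was at 8.16, 10.9, 8.09 and 9.61 CPM against 8.61, 12.6, 13.3 and 12.4 CPM (0.35 ± 0.15). Esam was at 6.83, 8.09, 6.52 and 6.02 CPM against 8.11, 8.71, 8.98 and 7.13 CPM (0.26 ± 0.12), and Pecam1 at 11.98, 15.9, 13.2 and 14.3 CPM against 14.7, 15.9, 17.7 and 15.9 CPM (0.22 ± 0.10). Cldn5 did not share the direction, at -0.01 ± 0.12, nor did Foxq1, Ramp2 and Egfl7.

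Vtn was at 49.0, 54.6, 51.0 and 50.6 CPM with control cargo and 52.6, 58.0, 56.3 and 55.3 CPM with hM4Di (0.12 ± 0.05). Higd1b was at 1.05, 1.22, 1.46 and 0.808 CPM against 1.36, 1.73, 1.80 and 1.34 CPM (0.45 ± 0.22), and Rgs5 at 28.0, 29.6, 33.2 and 26.9 CPM against 32.2, 31.4, 30.4 and 36.8 CPM (0.15 ± 0.08). All 3 overlapped. The microglial list stood higher too, with 9 of 10 genes above 0, a median of 0.28 and a summed level of 503 to 558 CPM in control cargo and 579 to 716 CPM in hM4Di input libraries, and the smooth muscle list had a median of 0.34. Their part in the difference was not tested.

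**Figure D3:**
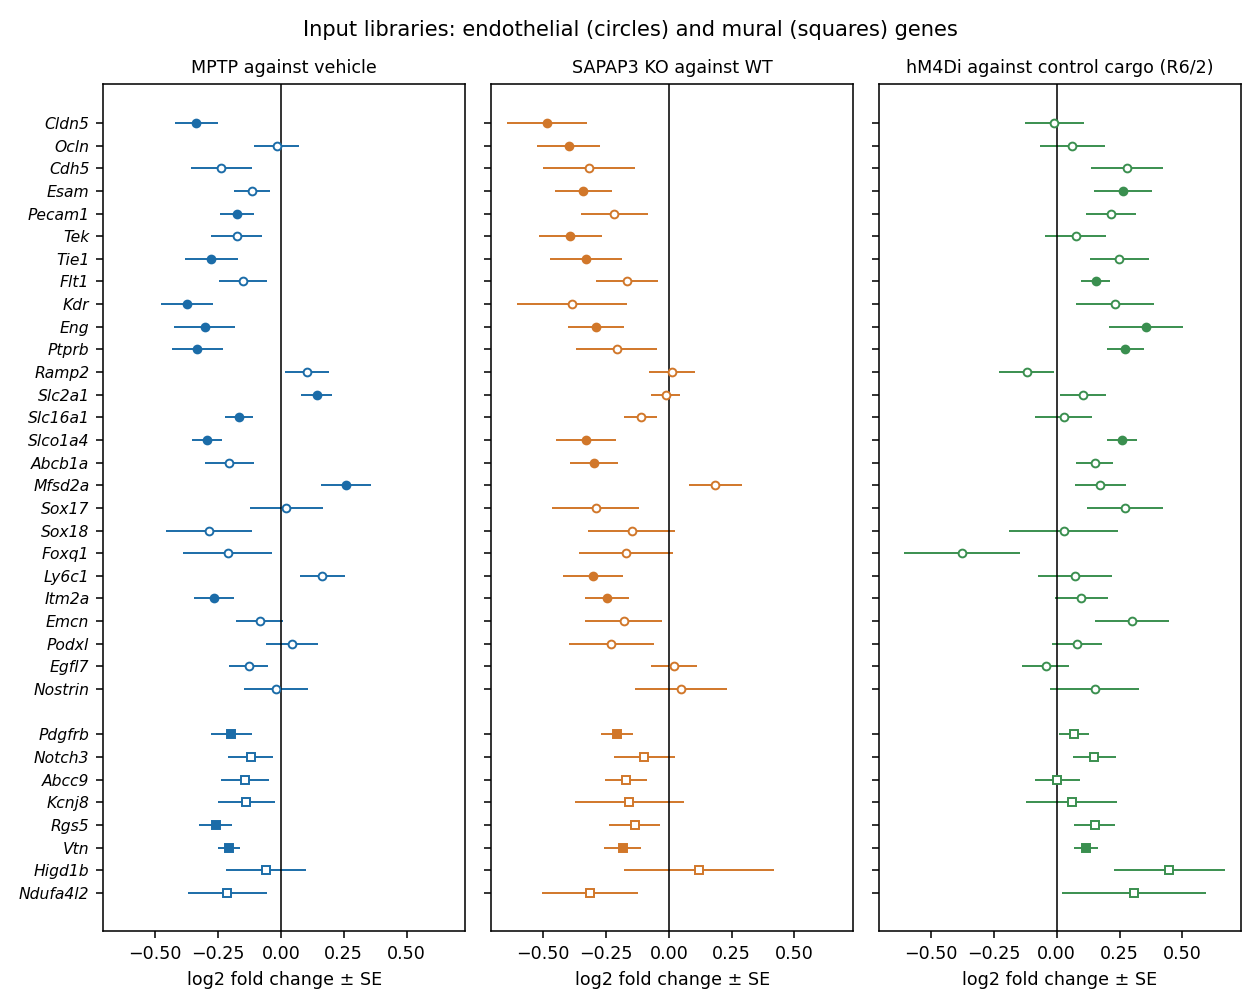
Log2 fold change ± SE (horizontal) of each member in input libraries for MPTP against vehicle, SAPAP3 knockout against wild type and hM4Di against control cargo, 4 mice a group; filled symbols have an unadjusted p under 0.05 and none passed the adjusted threshold. Of the 26 endothelial genes, 20 and 22 lie left of 0 in the MPTP and knockout comparisons, and 22 lie right of 0 in the hM4Di comparison.

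Taken library by library, the list medians separated the groups in part. Relative to the control mean, the endothelial median was -0.02, 0.02, 0.03 and 0.01 in vehicle and -0.03, -0.16, -0.16 and -0.24 in MPTP replicates 1 to 4, with MPTP replicate 1 next to the controls. The mural median was -0.03, -0.02, 0.04 and 0.04 against -0.15, -0.20, -0.17 and -0.23, without overlap. In knockout mice the endothelial median was -0.17, -0.07, -0.20 and -0.46 against 0.09, 0.06, -0.09 and -0.10 in wild-type mice, and the mural median -0.12, -0.25, -0.08 and -0.21 against 0.21, -0.08, -0.04 and -0.07. Knockout replicate 2 lay inside the wild-type range of the endothelial median, and knockout replicate 3 lay at the edge of that of the mural median. With hM4Di the endothelial median was 0.09, 0.13, 0.17 and 0.19 against -0.08, 0.14, -0.05 and -0.05 with control cargo, where replicate 2 lay in the hM4Di range, and the mural median 0.11, 0.12, 0.17 and 0.19 against -0.07, 0.08, -0.03 and 0.01, without overlap.

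**Figure D4:**
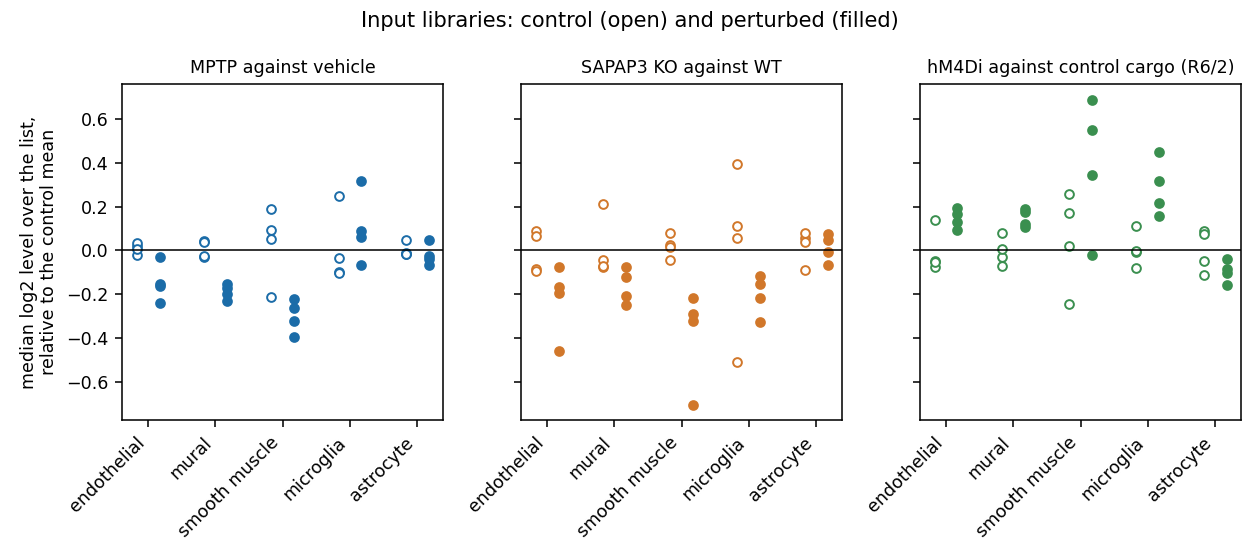
Median over each gene list of the log2 level in single input libraries relative to the control mean (vertical), with control libraries open and perturbed libraries filled, 4 a group. Mural medians of all 4 MPTP libraries lie at -0.15 or lower and those of all 4 hM4Di libraries at 0.11 or higher, outside their control ranges.

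In IP libraries only part of the members could be tested, since the filter on low counts left 25 endothelial and 6 mural genes in the MPTP, 24 and 6 in the SAPAP3 and 23 and 6 in the R6/2 experiment. With MPTP 0 genes were called (0% of 15069 lower, 0% higher). Pdgfrb and Vtn were lower at an unadjusted p under 0.05 (-0.25 ± 0.08 and -0.26 ± 0.12), where 7.33% of all genes were lower and 3.90% higher at that threshold, and DESeq2 called 302 genes and limma-voom 0. In knockout mice 4 genes were called (0.0197% lower, 0.00658% higher), none of them a member. Notch3 was at 47.9, 44.3, 44.3 and 50.01 CPM in wild-type and 60.0, 61.1, 50.6 and 50.2 CPM in knockout IP libraries. The groups did not overlap, and the change was 0.25 ± 0.08 (edgeR adjusted p = 0.999), where 1.64% of genes were higher and 0.980% lower at an unadjusted p under 0.05. Without overlap, 0.849% of genes were higher and 0.697% lower. The tested endothelial genes had a median of 0.07 there, and of -0.27 without knockout replicates 1 and 4.

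With hM4Di, 4 members passed in IP, a share of those tested near that of all genes, of which 2227 of 15159 were called. Pdgfrb, unlike most mural members higher in IP than in input, was at 47.4, 50.3, 51.5 and 50.9 CPM with control cargo and 39.6, 41.5, 36.7 and 35.7 CPM with hM4Di. Which cells its IP reads came from was not tested. Every treated library lay below every control, and Pdgfrb fell by 0.38 ± 0.06 on the log2 scale (edgeR adjusted p = 0.00623), where 5.63% of 15159 genes were called lower and 9.06% higher. Groups without overlap were common in this comparison, with 10.1% of all genes lower and 12.8% higher. Higher calls were 61.7% of all calls, and 50.6% with upper-quartile scaling. Slc16a1 was at 81.8, 82.5, 87.5 and 78.0 CPM against 102, 132, 126 and 111 CPM. It rose by 0.51 ± 0.08 (adjusted p = 0.00707) with no overlap. Ptprb was at 4.44, 4.18, 4.25 and 3.71 CPM against 4.98, 5.58, 5.63 and 6.38 CPM and rose by 0.44 ± 0.10 (adjusted p = 0.0253). Mfsd2a was at 27.6, 34.5, 31.4 and 43.5 CPM against 62.1, 36.6, 70.1 and 57.4 CPM, with hM4Di replicate 2 inside the control range, and rose by 0.72 ± 0.20 (adjusted p = 0.0429). The calls of Ptprb and Mfsd2a lay near the threshold. Leaving out 1 mouse ended the Ptprb call in 6 of 8 cases, with adjusted p up to 0.0603, and the Mfsd2a call in 6 of 8, up to 0.111, while those of Pdgfrb and Slc16a1 held in 8 of 8.

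Slc2a1 missed the threshold, at 61.2, 69.0, 66.4 and 66.5 CPM with control cargo and 76.5, 85.0, 99.3 and 70.2 CPM with hM4Di (0.33 ± 0.10, edgeR adjusted p = 0.0532, no overlap, as for 12.8% of all genes in that direction). So did Notch3 (0.19 ± 0.07, adjusted p = 0.0908) and Eng (0.65 ± 0.25, adjusted p = 0.113). Slc2a1 passed with DESeq2 (adjusted p = 0.0140) and in edgeR without hM4Di replicate 4 (0.0311), Notch3 in edgeR without hM4Di replicate 3 (0.0299) and Eng without control cargo replicate 3 (0.0349). At an unadjusted p under 0.05, 5 endothelial genes and 1 mural gene were higher and 1 mural gene lower, where 17.2% of all genes were higher and 14.2% lower. The endothelial share is thus near that of all genes. The 5 members with more FPKM in IP than in input had 27.6 CPM or more in every IP library here, whereas Ptprb was detected in IP at a level far below its input of 36.4 to 52.5 CPM. In the same IP libraries all 7 oligodendrocyte genes of a marker list were called higher (median 0.81) and 6 of 8 medium spiny neuron genes lower (median -0.53), and their part in the members' changes was not tested.

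**Figure D5:**
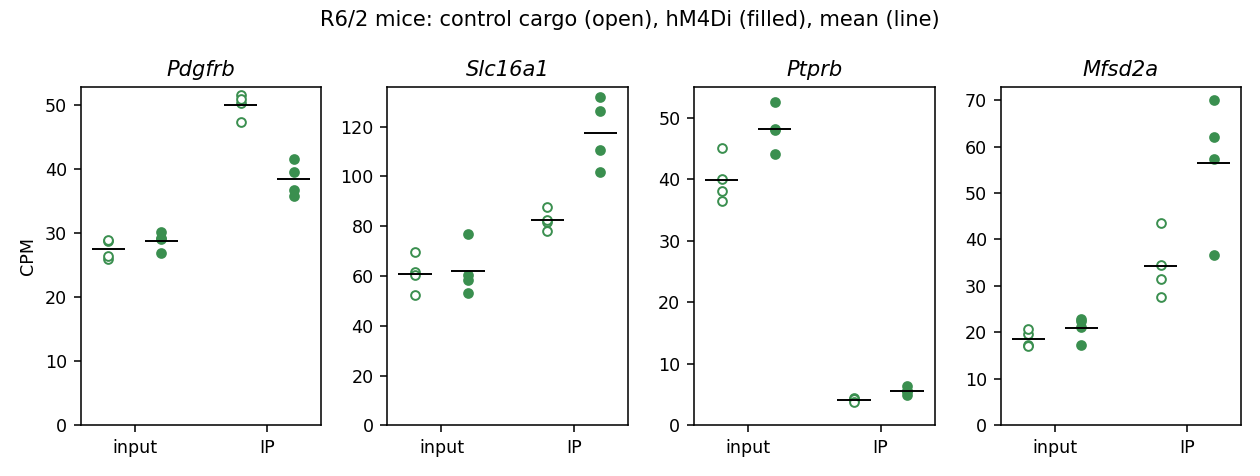
CPM (vertical, from 0) of the 4 members called in IP with hM4Di, in input and IP libraries of R6/2 mice with control cargo (open) or hM4Di (filled), 4 mice a group, with group means as lines. Pdgfrb lies at 35.7 to 41.5 CPM in hM4Di and 47.4 to 51.5 CPM in control cargo IP libraries, while its input values overlap.

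Whether an effect differed between the fractions was tested as an interaction. For hM4Di, Pdgfrb differed by -0.46 ± 0.08 (edgeR adjusted p = 0.0105), the only member called, where 1.20% of 15880 genes were called lower and 1.90% higher. Higher calls were 61.4% of all calls, 51.2% with relative log expression scaling and 44.7% with upper-quartile scaling. Its log2 ratio of IP to input was 1.11, 1.05, 1.20 and 1.07 with control cargo and 0.67, 0.75, 0.52 and 0.64 with hM4Di. Slc16a1 differed by 0.47 ± 0.15 (adjusted p = 0.0972) and Mfsd2a by 0.54 ± 0.24 (0.256). With the mouse as a block, which pairs IP with input of 1 animal, 2761 genes were called in place of 492, and both joined Pdgfrb (Slc16a1 at adjusted p = 0.00143). For MPTP and for the knockout 0 genes were called (0% lower and 0% higher of 15862 and of 16059 genes), with 3 and 2 members at an unadjusted p under 0.05. Of all genes, 5.48% were lower and 2.5% higher at that threshold for MPTP, and 0.311% and 0.953% for the knockout. DESeq2 called 50 genes and 1 gene, none of them a member, and limma-voom 0 and 0.

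Genes of the vascular pathways outside the list were called in IP with hM4Di only, of the 6 condition comparisons. In input with MPTP, 7 of 10 further barrier transporter genes were below 0 and 0 were called, with the transferrin receptor gene Tfrc at -0.22 ± 0.05, the organic anion transporter gene Slc22a8 at -0.37 ± 0.09 and the amino acid transporter gene Slc7a1 at -0.19 ± 0.07, each without overlap of the groups, against 2.62% of all genes lower without overlap. Of 12 genes of vascular ligands, 7 were below 0, and of 8 further junction genes 5 were. With hM4Di in input, 8 of 10 transporter genes were above 0, and Slco2b1 (0.33 ± 0.08) and Slco1c1 (0.23 ± 0.07) did not overlap, against 2.68% of all genes higher without overlap. In IP with hM4Di, where 9.06% of all genes were called higher and 5.63% lower, 1 of 11 tested ligand genes was called, a share near that of all genes: Vegfa, the ligand of Flt1 and Kdr, at 47.1 ± 2.84 CPM (SD, n = 4) against 64.4 ± 8.24 CPM (0.45 ± 0.09, edgeR adjusted p = 0.0150). Of 9 tested barrier transporter genes 2 were called higher, Slc3a2 (0.61 ± 0.11) and Slc7a5 (0.53 ± 0.14), which encode the chains of an amino acid transporter. Of the 7 tested endothelial transcription factor genes, Klf4 (2.52 ± 0.29, adjusted p = 0.00309) and Foxc1 (1.56 ± 0.23, 0.00586) rose, and of 7 smooth muscle genes Tagln and Lmod1 rose. The cells that gave these IP reads were not tested. Cnn1, at 0.099 ± 0.054 CPM against 8.99 ± 6.32 CPM, was also called but passed the filter on low counts only through the hM4Di libraries, and the defining smooth muscle gene Acta2 was not called.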

How the data were processed

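RNA was sequenced from input and astrocyte RiboTag IP of 24 replicates on a HiSeq4000 after ribosomal RNA depletion and stranded library preparation, per the labels' protocols. Read counts per gene were deposited by the authors, who used STAR, HTSeq and mm10 per the submitters' processing notes. Versions are not given in the sources used here. A second deposited table holds their FPKM. These were used to compare levels between genes and to set a member's median in IP beside that in input, and in no test. Tests on the counts ran under R 4.3.3 in edgeR 4.0.16 (filterByExpr with a minimum count of 10, TMM scaling, quasi-likelihood F test, Benjamini-Hochberg over all genes tested, threshold 0.05). CPM are TMM-scaled within each comparison, and log2 ratios per mouse use a prior count of 0.5. IP was compared with input in 16 libraries with condition as a covariate, conditions in 8 libraries of 1 fraction, and experiments in 48 libraries. DESeq2 1.42.0 and limma-voom (limma 3.58.1), other scalings and filters, a replicate block and leaving out each replicate were alternatives. The block was not run for the comparison of experiments. The scripts were tested on simulated data. IP and input of 1 mouse pair by their titles, and their residuals correlated at r = 0.0959 to 0.636. For MPTP replicate 2, whose titles name different animals, r was 0.0638. No 2 libraries of a group agreed within sampling noise. Titles name separate animals, with no further statement on how independently they were prepared. The members, lists and motifs were chosen with earlier results of these data known. For each condition comparison the genes given with single-library values are the 6 endothelial and 3 mural members with the smallest p, for IP against input the 4 most and 4 least depleted, and from any other list at most 3 by smallest p; further members are given by their fold changes.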

Additional observations from a re-analysis of the deposited data

Results flagged for a closer look

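Of 192 groups of 4 replicates examined for a sample far from the others (Dixon's criterion), 12 held one, where chance gives about 1 in 20. In input, the mural list median of wild-type replicate 1 was 0.21 against -0.08 to -0.04 in the other 3, the endothelial list median of control cargo replicate 2 was 0.14 against -0.08 to -0.05, Slco1a4 in vehicle replicate 4 was at 33.5 CPM against 38.0 to 38.4, and Vtn in wild-type replicate 1 at 59.2 CPM against 48.7 to 49.2. In IP, Mfsd2a in wild-type replicate 4 was at 47.3 CPM against 35.2 to 36.0 and Flt1 in wild-type replicate 2 at 4.64 CPM against 2.83 to 3.11.

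For the log2 ratio of IP to input, Ly6c1 was at -3.43 in hM4Di replicate 3 against -4.83 to -4.62 in the others. Foxq1 was at -4.49 in knockout replicate 3 against -2.36 to -2.23, and Pecam1 at -2.48 in wild-type replicate 2 against -3.78 to -3.72. Mfsd2a was at 1.90 in wild-type replicate 4 against 1.61 to 1.62, and Notch3 at 2.49 in vehicle replicate 1 against 2.28 to 2.29 and at 1.67 in control cargo replicate 2 against 1.90 to 1.94.

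The effect of hM4Di on Pdgfrb differed between IP and input by -0.46 on the log2 scale. IP-to-input ratios differed between experiments for part of the members. In the MPTP against the SAPAP3 experiment, 7 endothelial genes were lower and 2 endothelial and 2 mural genes higher (15.5% and 18.9% of all genes). The members' share was near that of all genes there. In the MPTP against the R6/2 experiment, 1 endothelial gene was lower and 10 endothelial and 4 mural genes higher (11.6% and 20.5% of all genes). In the SAPAP3 against the R6/2 experiment, 15 endothelial and 4 mural genes were higher (15.0% of all genes).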

How the results depend on the processing

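In all, 1960 alternative values were computed. The median change of both gene lists in input kept its sign in 94 of 94 alternatives, and 93 of 94 counts of depleted genes stayed within 1.5 times. The exception was 3 depleted mural genes in the MPTP experiment where a mean CPM of at least 1 was required, with a mural median of -1.44, since that filter left out Higd1b and Ndufa4l2. DESeq2 called 65 genes with MPTP in input (1 endothelial and 2 mural) and 302 in IP, 8 in knockout input and 8 in knockout IP, 53 with hM4Di in input and 3474 in IP; for the differences between IP and input it called 50 genes (MPTP), 1 (knockout) and 1159 (hM4Di, 2 of them members). Without a filter 1 gene was called with MPTP and 5 with hM4Di in input. The cause was not tested.

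Replicate numbers are not stated to pair control and perturbed mice, whose residuals correlated at r = -0.352 to 0.393 within a number. In knockout input the replicate block put 13 endothelial, 3 mural and 1076 of all genes under an unadjusted p of 0.05. Without it the counts were 10, 2 and 869. In knockout IP they were 927 of all genes with the block and 399 without. With the replicate block 1 gene was called with MPTP and 6 with hM4Di in input, 2 in knockout IP, and 1 endothelial gene with hM4Di in IP, where Ptprb and Mfsd2a had adjusted p of 0.0771 and 0.0726. With the mouse as the block, 2761 genes (3 members) differed between the fractions in their hM4Di effect; it changed no member's call in IP against input.

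With 1 replicate left out, the genes called ranged from 0 to 2 (MPTP input), 0 to 65 (MPTP IP), 0 to 1 (knockout input), 0 to 3 (knockout IP), 892 to 2130 (hM4Di IP) and 91 to 433 (hM4Di difference between fractions). The medians ranged from -0.23 to -0.11 (endothelial) and -0.20 to -0.13 (mural) with MPTP in input, -0.36 to -0.18 (mural) with MPTP in IP, and 0.17 to 0.33 (endothelial) and 0.035 to 0.36 (mural) with hM4Di in IP, where 1 to 2 endothelial and 1 to 2 mural genes were called. In knockout IP, Flt1 ranged from -0.059 to 0.40 and Egfl7 from -0.037 to 0.19, both lowest and below 0 without knockout replicate 1, and Itm2a from -0.20 to 0.015, above 0 without knockout replicate 2.

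After the data were seen, 2 further settings were added. With both mice holding Xist reads left out, 0 genes were called in knockout input and 0 in IP, and Flt1 was at -0.13 and Egfl7 at -0.039 in IP. With both knockout mice of high microglial RNA in IP left out, 0 and 0 genes were called, the medians in IP were -0.27 (endothelial) and -0.35 (mural), and Flt1 was at -0.30 and Egfl7 at -0.098. Upper-quartile scaling moved the median of all genes in IP against input to -0.16, -0.14 and -0.14. With 4 mice a group, small changes in genes of few reads are not resolved, in IP above all.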
